A study of Mus musculus with 28 samples.

Results

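The genes described here are 10 members of the NF-kB pathway in mouse liver: the subunit genes Nfkb1, Nfkb2, Rela and Relb, the genes of inhibitors and regulators Nfkbia, Nfkbie, Tnfaip3 and Bcl3, and the adhesion targets Icam1 and Vcam1. They were taken by symbol, from probe sets that name a single gene, and where a gene had several such probe sets the brightest was to stand for it. Of the 10 genes, 9 were measured, each by 1 probe set, out of 18820 genes measured in this way. Nfkb1 was not matched to a probe set of its own and was not analysed here.

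The livers of 28 male C57BL/6J mice were profiled on single-colour whole-transcript arrays, 1 mouse on each array. Mice of the lifelong groups followed an intermittent diet from 9 weeks of age, in which a week of free access to moderate-fat food (AIN-93W-MF, 25% of energy as fat) took turns with a week of restriction to 60% of what control mice ate in energy. They were killed at the age of 6 months (n = 6), of 12 months (n = 7) or of 24 months (n = 7). In the switched group (n = 8), mice ate the moderate-fat food freely from 9 weeks, changed to the intermittent diet at 12 months and were sampled at 24 months. All mice of these groups were housed singly from the start of their diets, and before sampling all went through a 4-hour fast, a gavage of carboxymethyl cellulose and a further 6-hour fast. Across the lifelong groups, older mice had also spent longer on the diet, and the sources used here do not say in which week of the cycle a mouse was sampled.

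NF-kB transcription factors are dimers of Rel-family proteins that inhibitors of the IkB family hold in the cytoplasm. In the canonical pathway, signals from cytokine and pattern-recognition receptors lead to breakdown of IkB and let dimers with RelA enter the nucleus, while in the alternative pathway the p100 product of Nfkb2 is processed to p52, which pairs with RelB. The factors switch on genes of their own inhibitors as well as adhesion molecules, and in liver they act in hepatocytes as well as in Kupffer cells, endothelial cells and other non-parenchymal cells.

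Values are log2 expression values, on which a difference of 1 is a doubling. The 28 array medians lay between 5.23 and 5.31. Of the members, 7 lay above the median of the array on each of the 28 arrays, Tnfaip3 did so on 25 and Relb on 10. The tissue label was checked against marker genes, and 7 of 7 measured hepatocyte markers lay above the 95th percentile of every array. An array batch (G150, G151 or G152), read from the array names, held livers of every group and was a term of the fit. The number of arrays limits the precision of each difference. Group means are given as log2 value ± SD, and fitted differences, which also take account of batch, with their standard error (SE) or 95% confidence interval.

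Promoter windows were examined because several members are known targets of the factors they encode or restrain. RefSeq windows of 250 bases before the gene start and 50 after, on GRCm38.p6, were at hand for 7 measured members, 10 windows in all, and those of Relb and Vcam1 were not used here. The kappa B consensus, searched on both strands, was present in windows of 5 of the 7: Nfkb2, Nfkbia, Nfkbie, Tnfaip3 and Bcl3. Counted in the same way, 5.14% of 27025 genes with RefSeq windows of this length had a match, or 4.51% of 32851 windows. The looser pattern GGNNNTTCC, also searched on both strands, overlaps the consensus, and 1 stretch can count for both. It was present for 6 of the 7 members, which adds Icam1, and for 20.7% of all genes, or 18.5% of all windows. Rela had a match to neither in its window. The members were listed for their part in this pathway, so their share of matches is no result about these livers. The 250 bases before the start are printed 5′ to 3′ on the strand of the gene for the 4 members that passed in a comparison and for Nfkbia, which did not pass and whose difference had the opposite sign. Capitals mark matches to either pattern on either strand. The stretches are chr19:46304487-46304736 (plus strand, the first of the 3 windows of Nfkb2), chr17:45555450-45555699 (plus strand, Nfkbie), chr10:19015411-19015660 (minus strand, the first of the 2 windows of Tnfaip3), chr9:21015690-21015939 (plus strand, Icam1) and chr12:55492648-55492897 (minus strand, Nfkbia).
Nfkb2: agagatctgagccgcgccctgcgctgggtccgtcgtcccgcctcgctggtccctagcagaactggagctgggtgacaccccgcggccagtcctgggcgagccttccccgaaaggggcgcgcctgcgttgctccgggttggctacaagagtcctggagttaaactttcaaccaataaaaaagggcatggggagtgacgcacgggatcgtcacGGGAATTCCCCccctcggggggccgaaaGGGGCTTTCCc
Nfkbie: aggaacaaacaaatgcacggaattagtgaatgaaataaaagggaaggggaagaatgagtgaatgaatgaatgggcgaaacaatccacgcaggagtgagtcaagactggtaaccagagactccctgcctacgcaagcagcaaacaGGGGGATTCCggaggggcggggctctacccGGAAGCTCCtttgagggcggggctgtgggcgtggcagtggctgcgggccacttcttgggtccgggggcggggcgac
Tnfaip3: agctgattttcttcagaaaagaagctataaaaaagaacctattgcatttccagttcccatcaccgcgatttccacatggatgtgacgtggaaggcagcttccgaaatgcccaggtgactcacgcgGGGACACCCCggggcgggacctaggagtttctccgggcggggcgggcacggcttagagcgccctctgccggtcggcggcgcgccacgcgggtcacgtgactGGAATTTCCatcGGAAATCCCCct
Icam1: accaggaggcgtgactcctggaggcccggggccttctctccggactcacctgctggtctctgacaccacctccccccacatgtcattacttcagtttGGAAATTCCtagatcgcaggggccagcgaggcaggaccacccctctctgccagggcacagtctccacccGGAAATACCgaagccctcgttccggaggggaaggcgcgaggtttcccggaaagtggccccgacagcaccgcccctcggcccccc
Nfkbia: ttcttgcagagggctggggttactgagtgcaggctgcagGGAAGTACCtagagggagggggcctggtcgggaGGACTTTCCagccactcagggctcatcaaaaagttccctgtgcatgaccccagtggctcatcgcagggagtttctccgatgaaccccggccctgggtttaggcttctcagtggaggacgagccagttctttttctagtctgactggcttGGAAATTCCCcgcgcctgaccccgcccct
In the Nfkb2 stretch the matches lie close to the gene start, the consensus match on the gene's strand nearest to it beginning 11 bases before it. In the Nfkbia stretch the consensus match begins 29 bases before the start, and in the Nfkbie stretch 106 bases before it. The Icam1 stretch holds GGNNNTTCC from 153 bases before the start on both strands and no match to the consensus. A match describes the letters of a window and shows no binding.

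The subunit genes were compared across age first, and Nfkb2 was the one subunit gene that passed the test in any comparison. Nfkb2 (probe set 10463599), which encodes p100, the precursor of p52, ranged from 5.74 to 5.99 at 6 months with a median of 5.90. At 12 months its values ran from 6.01 to 6.26 (median 6.11), at 24 months from 6.14 to 6.61 (median 6.27), and in the switched group from 6.14 to 6.55 (median 6.43). Each liver of the 3 older groups lay above the highest 6-month liver, so that the 6-month livers did not overlap with any other group, whereas the older groups overlapped with each other. The group means were 5.89 ± 0.09 (SD, n = 6), 6.13 ± 0.08 (SD, n = 7), 6.32 ± 0.17 (SD, n = 7) and 6.40 ± 0.16 (SD, n = 8) in that order. Between 24 and 6 months Nfkb2 rose by 0.45 (SE 0.07), or 1.37-fold, with an adjusted p of 0.0011 in limma after Benjamini-Hochberg adjustment over all probe sets. The difference was 0.53, 0.27 and 0.32 within batches G150, G151 and G152. Between the switched and the 6-month livers it rose by 0.50 (SE 0.07), or 1.41-fold (limma adjusted p = 7.74e-05; 0.54, 0.57 and 0.25 within batches). The steps between neighbouring groups did not pass. The 12-month livers were 0.24 above the 6-month livers (SE 0.07, limma adjusted p = 0.123), although 7 of 7 lay above the 6-month range, and the 24-month livers were 0.21 above those at 12 months (adjusted p = 0.229). The call at 24 against 6 months was kept when any of the 13 livers was left out in turn, and was lost in batches G151 and G152 alone, which hold 2 or 3 livers of each group (0.32, limma adjusted p = 0.502). That fit also ended the call of the switched against the 6-month livers (0.41, adjusted p = 0.352). In RNA of whole liver, a change in the number of cells of a type and a change in RNA per cell cannot be told apart, here and in the results that follow.

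**Figure D1:**
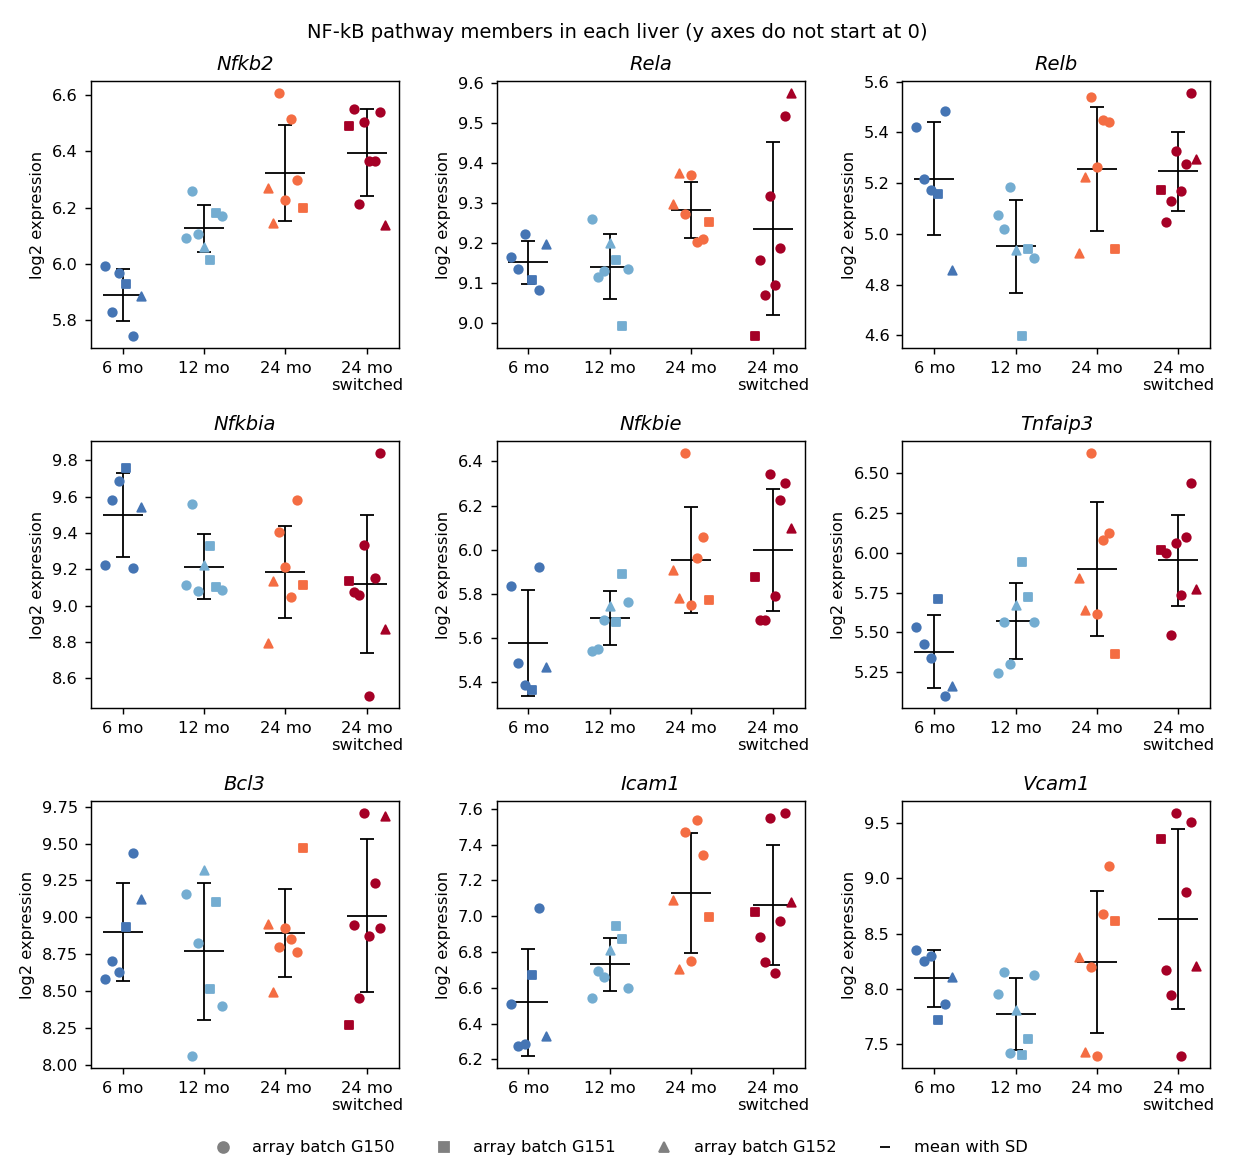
Each panel plots the log2 expression of 1 member (y axis, not starting at 0) in each liver at 6, 12 and 24 months of the lifelong intermittent diet and at 24 months in the switched group; symbols mark array batches and lines the group mean with its SD. For Nfkb2 the highest 6-month liver (5.99) lies below the lowest liver of each other group, while for each other member the groups overlap.

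Rela (probe set 10460631), which encodes the main activating subunit of the canonical pathway, stayed within a narrow range in the lifelong groups. Its values were 9.08 to 9.22 (median 9.15) at 6 months, 8.99 to 9.26 (median 9.13) at 12 months and 9.20 to 9.38 (median 9.27) at 24 months. The switched group was wider, from 8.97 to 9.57 (median 9.17), and contained both the lowest and the highest liver of the study for this gene. Switched replicates 7 and 8 were its high livers, at 9.52 and 9.57. Rela differed by 0.12 between 24 and 6 months (95% confidence interval -0.03 to 0.26, limma adjusted p = 0.385) and by 0.00 between 12 and 6 months (adjusted p = 0.994). It differed by 0.11 between 24 and 12 months (adjusted p = 0.553) and by 0.09 between switched and 6-month livers (adjusted p = 0.477). At 24 months 7 of 7 livers exceeded the 6-month mean and 5 of them above the 6-month maximum.

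Relb (probe set 10560575), the partner of p52 in the alternative pathway, was lowest at 12 months, where the mean was 4.95 ± 0.18 (SD, n = 7). At 6 months its values ran from 4.86 to 5.48 (median 5.19), at 12 months from 4.60 to 5.19 (median 4.94), at 24 months from 4.93 to 5.54 (median 5.26) and in the switched group from 5.05 to 5.55 (median 5.22). All 4 ranges overlapped. The 12-month livers differed from the 6-month livers by -0.24 (limma adjusted p = 0.243), and the 24-month livers differed from the 12-month livers by 0.30 (adjusted p = 0.192). Neither step passed, and at 24 months Relb was 0.06 from its 6-month level (95% confidence interval -0.13 to 0.25, adjusted p = 0.804). The switched livers were 0.01 from that level (adjusted p = 0.973).

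The differences of the inhibitor and regulator genes did not share 1 sign. Nfkbie and Tnfaip3 lay higher in old livers and passed in the switched against the 6-month livers. Nfkbia had differences below 0 that did not pass, and Bcl3 varied widely within each group. Nfkbie (probe set 10445412) encodes IkB epsilon, an inhibitor that retains Rel dimers in the cytoplasm. Its values were 5.36 to 5.92 (median 5.48) at 6 months, 5.54 to 5.89 (median 5.68) at 12 months, 5.75 to 6.44 (median 5.91) at 24 months and 5.68 to 6.34 (median 5.99) in the switched group. A pair of 6-month livers, replicates 1 and 5, reached 5.83 and 5.92 and lay among the old livers, while the other 6-month livers stood below each old liver. Between 24 and 6 months Nfkbie differed by 0.38 (SE 0.13, 95% confidence interval 0.12 to 0.65), which did not pass (limma adjusted p = 0.081). The within-batch differences were 0.40, 0.41 and 0.38. The step from 6 to 12 months was 0.13 (adjusted p = 0.743) and that from 12 to 24 months 0.26 (adjusted p = 0.445). It rose by 0.42 (SE 0.12), or 1.33-fold, between the switched and the 6-month livers (limma adjusted p = 0.0305), with 0.35, 0.51 and 0.63 within batches. This call was lost in 8 of the 14 fits that left out 1 liver, those without 6-month replicate 2, 3, 4 or 6 or switched replicate 4, 6, 7 or 8 (largest adjusted p = 0.0884), and at 24 against 6 months the difference passed without 6-month replicate 5 (0.45, adjusted p = 0.0449).

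Tnfaip3 (probe set 10368144) encodes A20, a ubiquitin-editing enzyme that shuts down signalling to NF-kB. At 6 months it ranged from 5.10 to 5.71 (median 5.38), at 12 months from 5.25 to 5.94 (median 5.57), at 24 months from 5.37 to 6.63 (median 5.84) and in the switched group from 5.48 to 6.44 (median 6.01). The 24-month group had the widest range of the 4, with replicate 3 at its top and replicate 7, at 5.37, within the 6-month range. Between 24 and 6 months Tnfaip3 differed by 0.54 (SE 0.17, 95% confidence interval 0.20 to 0.88) and did not pass (limma adjusted p = 0.0602), with 0.76, -0.34 and 0.58 within batches. The negative value comes from batch G151, which held 24-month replicate 7 and 6-month replicate 4 alone of these groups, and without replicate 7 the difference was 0.68 and passed (adjusted p = 0.00854). It also passed without 24-month replicate 4 (0.60, adjusted p = 0.0477). The step from 6 to 12 months was 0.18 (adjusted p = 0.706) and that from 12 to 24 months 0.36 (adjusted p = 0.410). Between the switched and the 6-month livers Tnfaip3 rose by 0.57 (SE 0.16), or 1.48-fold (limma adjusted p = 0.0231; 0.62, 0.31 and 0.61 within batches), and 7 of 8 switched livers lay above the 6-month maximum. That call was lost without 6-month replicate 3, 5 or 6 (largest adjusted p = 0.0581).

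Nfkbia (probe set 10400405) encodes IkB alpha, the inhibitor that NF-kB itself induces most rapidly. Its values were 9.21 to 9.76 (median 9.56) at 6 months, 9.08 to 9.56 (median 9.11) at 12 months, 8.79 to 9.58 (median 9.14) at 24 months and 8.50 to 9.84 (median 9.11) in the switched group. The 6-month livers divided into 4 between 9.54 and 9.76 and a lower pair, replicates 1 and 5, at 9.22 and 9.21. The single switched liver above them all was replicate 7, at 9.84. Differences from 6 months were -0.29 at 12 months (limma adjusted p = 0.430), -0.30 at 24 months (adjusted p = 0.295) and -0.38 in the switched group (adjusted p = 0.100), none of which passed. Nfkbia differed by -0.00 between 24 and 12 months (adjusted p = 0.995). Without switched replicate 7 the difference of the switched from the 6-month livers was -0.48 and passed (adjusted p = 0.017), as it did with array weights (-0.45, adjusted p = 0.0345).

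Bcl3 (probe set 10560685) encodes an atypical IkB protein that works in the nucleus with p50 and p52 homodimers. It ranged from 8.58 to 9.44 at 6 months (median 8.82), 8.06 to 9.32 at 12 months (median 8.83), 8.49 to 9.47 at 24 months (median 8.85) and 8.27 to 9.70 in the switched group (median 8.94). These ranges overlapped throughout. Bcl3 differed by -0.13 between 12 and 6 months (limma adjusted p = 0.869), 0.09 between 24 and 12 months (adjusted p = 0.924) and 0.12 between switched and 6-month livers (adjusted p = 0.792). The difference between 24 and 6 months was -0.04, with a 95% confidence interval of -0.50 to 0.42 (limma adjusted p = 0.954), so that differences of the size seen for Nfkbie could not be told from none.

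Of the adhesion targets, Icam1 passed in both comparisons of old with 6-month livers and Vcam1 in none. Icam1 (probe set 10583519) encodes the ligand of leukocyte beta-2 integrins on endothelium and hepatocytes. It ranged from 6.27 to 7.05 (median 6.42) at 6 months and from 6.55 to 6.95 (median 6.69) at 12 months. At 24 months it ranged from 6.71 to 7.54 (median 7.09), and in the switched group from 6.68 to 7.58 (median 7.00). The 6-month range overlapped with both old groups through replicate 5, at 7.05, and the second highest 6-month liver, at 6.67, lay below each old liver but within the 12-month range. Icam1 rose by 0.63 (SE 0.16), or 1.54-fold, between 24 and 6 months, from 6.52 ± 0.30 (SD, n = 6) to 7.13 ± 0.33 (SD, n = 7), with a limma adjusted p of 0.0234. Within batches it was 0.75, 0.33 and 0.57. It rose by 0.54 (SE 0.15), or 1.46-fold, between the switched and the 6-month livers, to 7.06 ± 0.34 (SD, n = 8) (limma adjusted p = 0.0246; 0.54, 0.35 and 0.75 within batches). The 12-month livers were 0.20 above 6 months (adjusted p = 0.645) and the 24-month livers 0.42 above 12 months (adjusted p = 0.283), neither of which passed. The call at 24 against 6 months was lost without 6-month replicate 2, 3 or 6 or 24-month replicate 3 or 5 (largest adjusted p = 0.0696), in the fit of both groups alone (0.0656), in batch G150 alone (0.137) and in batches G151 and G152 alone (0.416). The call for the switched livers was lost without 6-month replicate 2, 3 or 6 or switched replicate 4 or 8 (largest adjusted p = 0.0716).

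Vcam1 (probe set 10501608) encodes the endothelial ligand of the integrin VLA-4 and was the most variable member in old livers. It ranged from 7.72 to 8.36 (median 8.18) at 6 months, 7.40 to 8.15 (median 7.81) at 12 months, 7.40 to 9.11 (median 8.29) at 24 months and 7.39 to 9.58 (median 8.54) in the switched group. The SD was 0.26 at 6 months, 0.32 at 12 months, 0.64 at 24 months and 0.82 in the switched group, and the old groups reached both below and above the 6-month range. No comparison passed. Vcam1 differed by -0.33 between 12 and 6 months (adjusted p = 0.725) and by 0.51 between 24 and 12 months (adjusted p = 0.554). The difference was 0.18 between 24 and 6 months (95% confidence interval -0.46 to 0.83, limma adjusted p = 0.818) and 0.52 between the switched and the 6-month livers (-0.10 to 1.14, adjusted p = 0.313). The interval is wide enough to contain the size of the rise of Icam1.

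Counted by comparison, members passed in the comparisons that set old livers against 6-month livers. Between 24 and 6 months 2 of 9 members passed limma, both higher, against 2.10% of all 35556 probe sets called higher and 4.73% called in either direction, and 4 members and 19.2% of all probe sets had an unadjusted p under 0.05. Between the switched and the 6-month livers 4 of 9 passed, all higher, against 4.66% of all probe sets called higher and 10.0% in either direction, and 5 members and 23.5% of all probe sets had an unadjusted p under 0.05. These comparisons share the 6-month livers, so that the second is no separate evidence for the first. In the fit of the 21218 one-gene probe sets alone, 819 were called higher and 1780 in either direction at 24 against 6 months. Tnfaip3 also passed in that comparison there (limma adjusted p = 0.0390). For switched against 6-month livers the counts were 1603 and 3152. The shares among one-gene probe sets are thus larger than those over all probe sets. Between 12 and 6 months limma called 0 of 9, against 0.591% of all probe sets. At an unadjusted p under 0.05 were 2 members, Nfkb2 and Relb, and 13.1% of all probe sets. Between 24 and 12 months it called 0 of 9, against 0.0253%. At an unadjusted p under 0.05 were 5 members, Nfkb2, Relb, Nfkbie, Tnfaip3 and Icam1, all higher at 24 months, and 11.1% of all probe sets. Nfkb2 was the 1 member whose 6-month livers lay wholly below a comparison group, which held for 0.574% of all probe sets at 12 months, 0.858% at 24 months and 1.49% in the switched group. The share was 0.112% for 24 wholly above 12 months and 0.0197% for switched wholly above lifelong livers, where 0 members did so. The median difference over the 9 members was 0.00 for 12 against 6 months, 0.18 for 24 against 6 months, 0.26 for 24 against 12 months and 0.42 for switched against 6 months, while the medians over all genes lay between -0.01 and 0.01. Above 0 were 5, 7, 8 and 8 members in these comparisons, beside 52.3%, 49.5%, 44.7% and 46.9% of all genes.

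**Figure D2:**
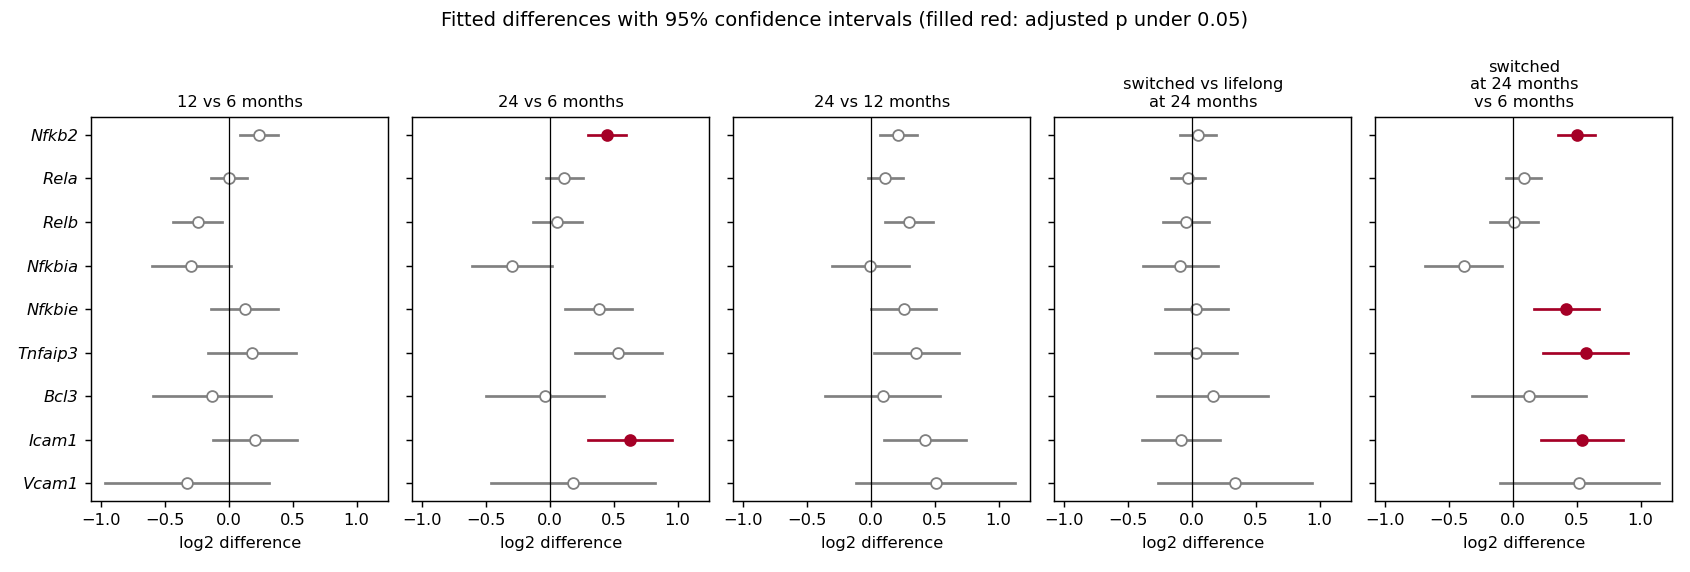
Fitted log2 differences (x axis) with 95% confidence intervals for the 9 members (rows) in the 5 comparisons (panels), with filled red points where the limma adjusted p was under 0.05. Red points appear in 2 panels: Nfkb2 and Icam1 at 24 against 6 months, and Nfkb2, Nfkbie, Tnfaip3 and Icam1 in switched against 6-month livers.

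The switched and the lifelong livers at 24 months were compared to ask whether the diet of the first part of life left a difference at the same age. In this comparison limma called 0 of 9 members, against 0.0197% of all probe sets, and 0 members had an unadjusted p under 0.05, as 7.58% of all probe sets did. Nfkb2 differed by 0.05, with a 95% confidence interval of -0.09 to 0.19, and Icam1 by -0.08 (-0.39 to 0.22). Nfkbie differed by 0.03 (-0.21 to 0.28) and Tnfaip3 by 0.03 (-0.29 to 0.35). Rela differed by -0.03 (-0.16 to 0.10), Relb by -0.05 (-0.23 to 0.13) and Nfkbia by -0.09 (-0.38 to 0.20). Bcl3, at 0.16 (-0.27 to 0.59), and Vcam1, at 0.34 (-0.27 to 0.94), had the widest intervals. For Nfkb2 the interval ends below the 0.45 by which the gene rose between 24 and 6 months. For Icam1, Nfkbie and Tnfaip3 differences of about 0.2 to 0.4 in either direction lie within the intervals, so that these data do not show the groups to be alike.

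Some pairs of members varied together across livers. Over the 28 livers, after removing batch and group means, Pearson's r was above 0 for 32 of the 36 pairs of members, with a median of 0.35; over all pairs of genes 50.1% were above 0. After adjustment over the 36 pairs 9 passed for r and 6 for Spearman's rho, and Rela and Bcl3 were in none of these. The p-values come from permutations of the residuals, which take no account of the means already removed. The p-values are therefore somewhat too small. The permutations also treat all groups as equally variable, while the SD of Vcam1, for example, was 0.26 at 6 months and 0.82 in the switched group. Passing pairs nearest the threshold were Nfkbia with Tnfaip3, Nfkbia with Vcam1 and Icam1 with Vcam1 (adjusted permutation p = 0.0249 for r), and these may not hold. The pairs share their arrays and the normalisation of each array. Nfkbie and Icam1 had the highest value (r = 0.78, Spearman's rho = 0.80, each with a permutation p of 1e-05, the smallest that 100000 permutations of the residuals can give, and 0.00036 after adjustment over the 36 pairs). Without the 2 livers farthest from the median of Nfkbie r was 0.74, and within batch G150 alone it was 0.80 (n = 18). Nfkb2 and Tnfaip3 followed (r = 0.67, permutation p = 8e-05, adjusted 0.00144; rho = 0.56, permutation p = 0.00212, adjusted 0.0161). Without the 2 livers farthest from the median of Nfkb2 r was 0.53, and within batch G150 it was 0.79. For both pairs these values use the residuals over the 28 livers. The livers left out were those with the farthest residuals, and group means were not fitted anew within G150. The 4 pairs with r below 0 were Nfkb2 with Rela (-0.07) and Bcl3 with Nfkb2 (-0.17), with Nfkbia (-0.12) and with Tnfaip3 (-0.12).

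**Figure D3:**
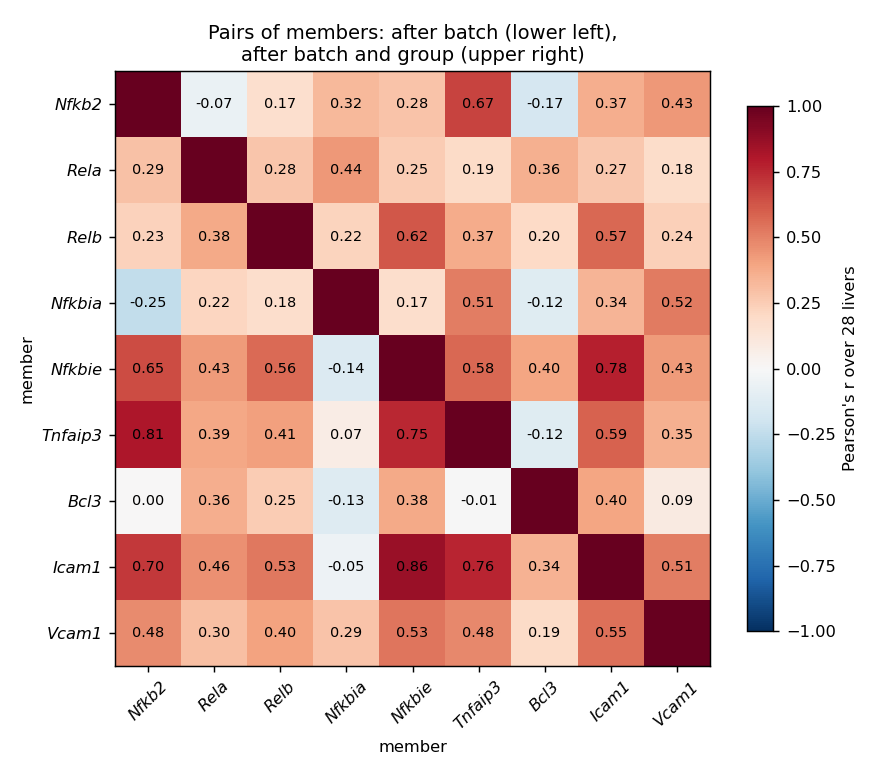
Pearson's r between pairs of members over 28 livers, after removal of batch means (lower left) and of batch and group means (upper right), with the colour scale from -1 to 1. Nfkbie with Icam1 is the darkest pair off the diagonal, 0.86 after batch and 0.78 after batch and group.

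Single livers carried several members at once, though not all of them. At 24 months replicate 3 was the highest of its group in Nfkb2 (6.61), Tnfaip3 (6.63) and Nfkbie (6.44) and second in Icam1 (7.47). In Vcam1 it lay at 8.20, below the group median of 8.29. Replicates 2 and 4 of that group were its lowest in Icam1 (6.71 and 6.75) and in Vcam1 (7.43 and 7.40), but its highest in Rela (9.38 and 9.37). In the switched group replicates 4 and 7 were the highest in Icam1 (7.55 and 7.58) and Vcam1 (9.58 and 9.51). In Nfkb2 replicate 2 was the highest (6.55), with replicates 7 and 4 close to it (6.54 and 6.51). The leukocyte marker score is the mean over 6 common leukocyte genes of the log2 difference from the mean of all arrays. This score was high or low in several of the same livers. It was 0.87 in 24-month replicate 3, -0.43 and -0.56 in replicates 2 and 4, and 0.90 and 1.07 in switched replicates 4 and 7. In switched replicate 2 it was 0.03.

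Marker genes of leukocytes therefore stand beside the members as measured values. The leukocyte score ranged from -0.43 to 0.03 at 6 months, -0.77 to -0.13 at 12 months, -0.56 to 0.87 at 24 months and -0.21 to 1.07 in the switched group. Between 24 and 6 months 6 of 6 common leukocyte genes and 10 of 10 Kupffer cell and macrophage genes differed in the upward direction, with limma calling 0 of either list (2 and 0 at an unadjusted p under 0.05). Of 7 measured B cell genes 5 rose in that comparison, among them Fcmr by 0.53 and Cd22 by 0.59, and 4 rose in switched against 6-month livers. Between 24 and 12 months 6 of 6 leukocyte genes (median 0.67), 10 of 10 macrophage genes (0.68), 7 of 7 B cell genes (0.71), 7 of 7 neutrophil genes (0.48) and 10 of 10 T and NK cell genes (0.22) lay above 0. Of these limma called Cd79b alone, which rose by 1.25 (adjusted p = 0.0439), with 6, 7, 7, 6 and 2 at an unadjusted p under 0.05. Between 12 and 6 months 0 of 6, 1 of 10, 2 of 7, 1 of 7 and 1 of 10 genes of these lists lay above 0, with limma calling 0 and 0 at an unadjusted p under 0.05. Of all genes 49.5% lay above 0 at 24 against 6 months, 44.7% at 24 against 12 and 52.3% at 12 against 6. The macrophage score ranged from -0.37 to 0.20 at 6 months and from -0.53 to 1.01 at 24 months, and the B cell score from -0.39 to -0.07 and from -0.20 to 0.70. For 24 against 6 months and for switched against 6-month livers, limma called 0 of 10 endothelial genes (1 and 2 at an unadjusted p under 0.05). Of 7 hepatocyte genes it also called 0 in both (1 and 4 at an unadjusted p under 0.05). Above 0 in these comparisons were 4 and 5 endothelial genes, and 2 hepatocyte genes in each. At 24 against 6 months 7 of 7 neutrophil genes and 7 of 10 T and NK cell genes lay above 0, and 4 of 8 stellate cell genes, with limma calling 0 of each list (4, 1 and 3 at an unadjusted p under 0.05). In switched against 6-month livers limma called 2 of 8 stellate cell genes, Des and Pdgfrb, which rose by 0.38 and 0.64. The median of that list was 0.08, with 6 genes above 0. Of the 6 leukocyte genes it called 1, Coro1a, which rose by 0.46, with 6 above 0. Over all probe sets 4.66% were called higher in this comparison and 2.10% at 24 against 6 months. The part of these cells in the differences of the members was not tested.

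Across the 28 livers, after removing batch and group means, Icam1 had the highest correlation with the leukocyte score (r = 0.80, permutation p = 1e-05, the smallest possible; rho = 0.74, permutation p = 2e-05). Vcam1 (r = 0.76, permutation p = 1e-05; rho = 0.70, permutation p = 6e-05) and Nfkbie (r = 0.76 and rho = 0.78, each with a permutation p of 1e-05) followed. For Tnfaip3 r was 0.63 (permutation p = 0.00044; rho = 0.57, permutation p = 0.00185) and for Nfkb2 0.56 (permutation p = 0.00193; rho = 0.46, permutation p = 0.0141). Adjusted over the 9 members, these 5 relations had p from 3e-05 to 0.00347 for r and from 9e-05 to 0.0254 for rho. As for the pairs, the removal of batch and group means makes these permutation p-values somewhat too small. The other 4 members did not pass in either measure, Relb with r = 0.40 (adjusted permutation p = 0.0507) and Bcl3 with r = 0.20 (adjusted permutation p = 0.300) among them. The SD of the score was 0.18 at 6 months, 0.21 at 12 months, 0.53 at 24 months and 0.48 in the switched group. Old livers thus weigh most in these correlations, and the permutations treat all groups as equally variable. Relations within single groups were not tested. Without the 2 livers farthest from the median score r was 0.74 for Icam1, 0.69 for Vcam1, 0.76 for Nfkbie, 0.54 for Tnfaip3 and 0.48 for Nfkb2. Within batch G150 (n = 18) it was 0.84, 0.81, 0.81, 0.74 and 0.60 in the same order. As for the pairs, these values use the residuals over the 28 livers, with no new fit within G150. With the macrophage score r was 0.79, 0.78, 0.72, 0.67 and 0.57 in the same order over all 28 livers. With the endothelial score r was 0.71, 0.58, 0.44, 0.53 and 0.36 in that order. With the hepatocyte score it was -0.27, -0.09, -0.21, -0.60 and -0.61. Macrophages are leukocytes, and the correlations with the macrophage, endothelial and hepatocyte scores were not tested. Whether the relation is particular to leukocytes was not tested either.

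**Figure D4:**
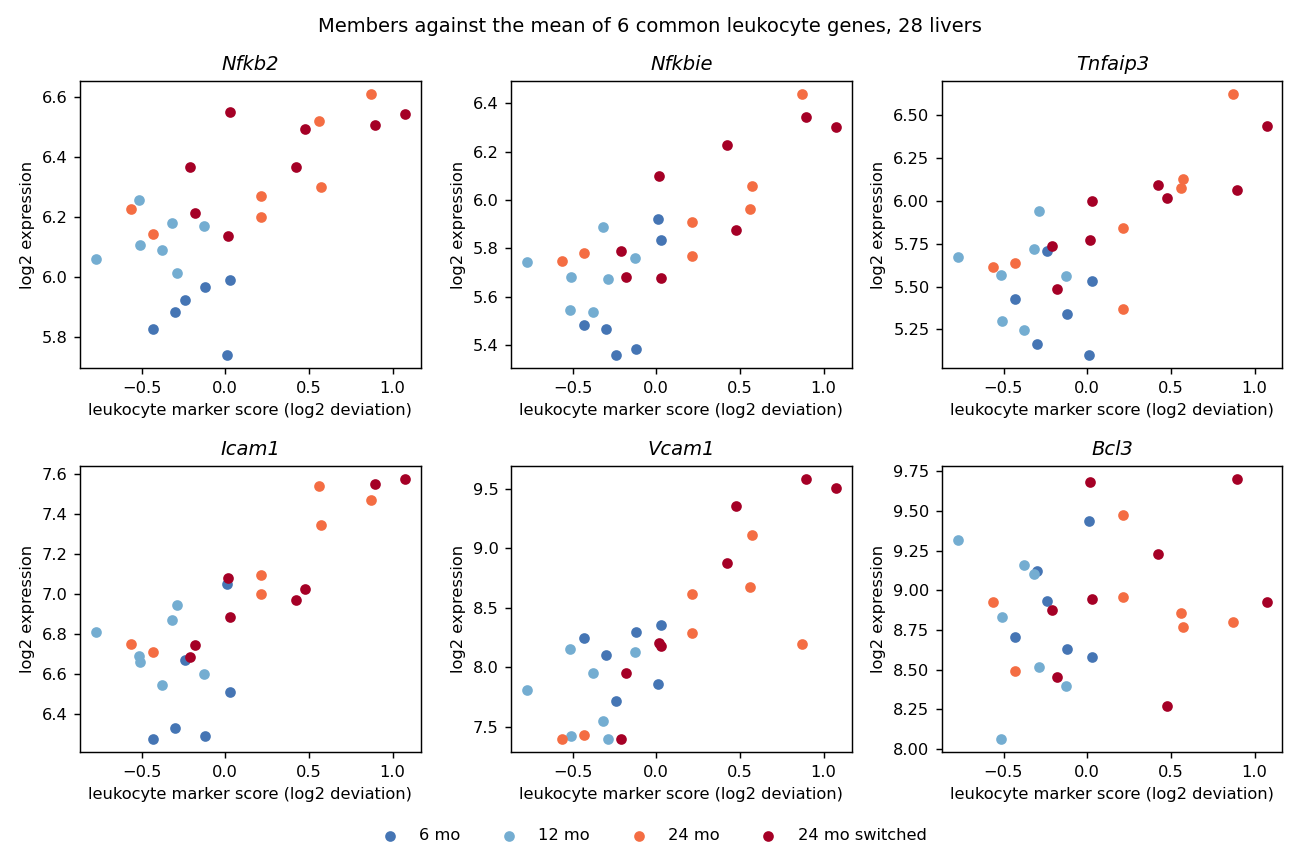
Log2 expression of 6 members (y axes) against the leukocyte marker score (x axis, mean log2 deviation of 6 common leukocyte genes) in 28 livers coloured by group. Over all livers Icam1 and Vcam1 increase with the score (r = 0.80 and 0.76 after batch and group), and Bcl3 shows little relation (0.20). The score spreads most in the old groups.

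The genes whose pattern over the 28 arrays was most like that of a member, after removal of batch means, were named for each member. For Vcam1 they were the nucleic acid sensing receptors Tlr7 (r = 0.93) and Tlr8 (0.91) and the receptor kinase Axl (0.91). For Icam1 they were Tln1 (0.88), which encodes the integrin-binding talin, Ssbp4 (0.87) and the receptor Tlr2 (0.87). Nfkbie was most like Icam1 itself (0.86), Rasa4 (0.85) and the myeloid Src-family kinase Fgr (0.84). Tnfaip3 was most like the integrin gene Itgax (0.86), Smpdl3b (0.86) and Ckap4 (0.85). For Nfkb2 the nearest were Sorl1 (0.90), the lysosomal protease gene Ctsd (0.88) and Tmem176b (0.85), and these fell to 0.69, 0.54 and 0.45 once group means were removed too. Bcl3 was nearest to Id2 (0.82), Fndc3b (0.81) and B4galt1 (0.81), and Nfkbia to Gart (0.83), a purine synthesis gene, Alg8 (0.80) and Polr1b (0.79). Rela was nearest to Ampd3 (0.79), Fkbp15 (0.77) and AI837181 (0.76), a clone name, and Relb to Plxnd1 (0.73), Arhgap4 (0.71) and F13a1 (0.71). These values are descriptions over arrays that share groups, and the genes were picked for their likeness from all genes measured.

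The rest of the pathway was described by 5 lists with 75 of 81 listed genes measured. Between 24 and 6 months 6 of these genes rose and 1 fell, where 2.10% of all probe sets were called higher and 4.73% in either direction. In the fit of the 21218 one-gene probe sets alone, 819 were called higher and 1780 in either direction, which are larger shares. An unadjusted p under 0.05 was found for 28 of the 75 genes and 19.2% of all probe sets. Among 20 measured genes of canonical input, Tnfrsf1a, the main receptor for TNF, rose by 0.56 (limma adjusted p = 0.0308) and Ikbkg, which encodes the scaffold NEMO of the IkB kinase, fell by 0.42 (adjusted p = 0.00558). Of 11 genes of alternative input, Tnfrsf13c, the BAFF receptor of B cells, rose by 0.35 (adjusted p = 0.0296) and Cd40 by 0.39 (adjusted p = 0.0382). Both are also expressed by B cells, and 5 of 7 B cell markers rose in the same comparison. The part of B cells in the differences of Tnfrsf13c and Cd40 was not tested. Of 20 other targets, Lcn2, an iron-binding acute phase protein, rose by 2.08 (adjusted p = 0.0335), the apoptosis inhibitor Birc3 by 0.45 (adjusted p = 0.00779) and the transcription factor Irf1 by 0.47 (adjusted p = 0.0301). Of 12 other inhibitors and regulators limma called 0 (2 at an unadjusted p under 0.05), the nearest being Nfkbiz with 0.37 (adjusted p = 0.0518), and of 12 adhesion partners 0 (3 at an unadjusted p under 0.05), the nearest being the integrin gene Itgb2 with 0.71 (adjusted p = 0.0858).

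List medians at 24 against 6 months were 0.09 for canonical input, 0.15 for alternative input, 0.33 for other targets, 0.09 for other regulators and 0.11 for adhesion partners, beside 0.18 for the members and a median over all genes of -0.00. In switched against 6-month livers, which share the 6-month livers, 15 list genes rose and 2 fell, where 4.66% of all probe sets were called higher and 10.0% in either direction. In the fit of the 21218 one-gene probe sets alone the counts were 1603 and 3152, again larger shares. Lcn2 differed most, having risen by 3.26 (limma adjusted p = 0.000507), and 7 of 20 other targets rose, among them Birc3 (0.41, adjusted p = 0.00511), the chemokines Ccl2 (0.92, adjusted p = 0.016) and Ccl5 (0.98, adjusted p = 0.0353), and the dendritic and B cell surface gene Cd83 (0.41, adjusted p = 0.0172). Tnfrsf1a rose by 0.75 (adjusted p = 0.00165) and Tradd, its adaptor, by 0.58 (adjusted p = 0.00289), while Ikbkg fell by 0.30 (adjusted p = 0.0183) and Traf2 fell by 0.22 (adjusted p = 0.0499). The lymphotoxin receptor gene Ltbr rose by 0.45 (adjusted p = 0.00175) and its ligand gene Ltb by 0.33 (adjusted p = 0.0292). Nfkbiz (0.40, adjusted p = 0.0156) and Nfkbib (0.22, adjusted p = 0.0302) rose among the other regulators. Among the adhesion partners the selectin gene Selp rose by 0.51 (adjusted p = 0.00988) and Itgam by 1.08 (adjusted p = 0.0338). For 12 against 6 months, 24 against 12 months and switched against lifelong livers, limma called 0 of the 75 genes. An unadjusted p under 0.05 was found for 9, 26 and 6 of them, beside 13.1%, 11.1% and 7.58% of all probe sets.

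The gene with the smallest p of each list in these 3 comparisons is named although none passed. Between 12 and 6 months these were Tradd (0.40, limma adjusted p = 0.124), Irf1 (0.41, 0.124), Rel (-0.24, 0.273), Ltbr (0.17, 0.448) and Itgal (-0.36, 0.588). Between 24 and 12 months they were Cd40 (0.46, adjusted p = 0.102), Itga4 (0.84, 0.114), Ccl2 (0.79, 0.200), Tlr2 (0.57, 0.215) and Rbck1 (0.15, 0.270). Between switched and lifelong livers they were Selp (0.47, adjusted p = 0.236), Ltbr (0.24, 0.481), Rbck1 (-0.14, 0.519), Ticam1 (0.24, 0.551) and Lcn2 (1.17, 0.625).

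**Figure D5:**
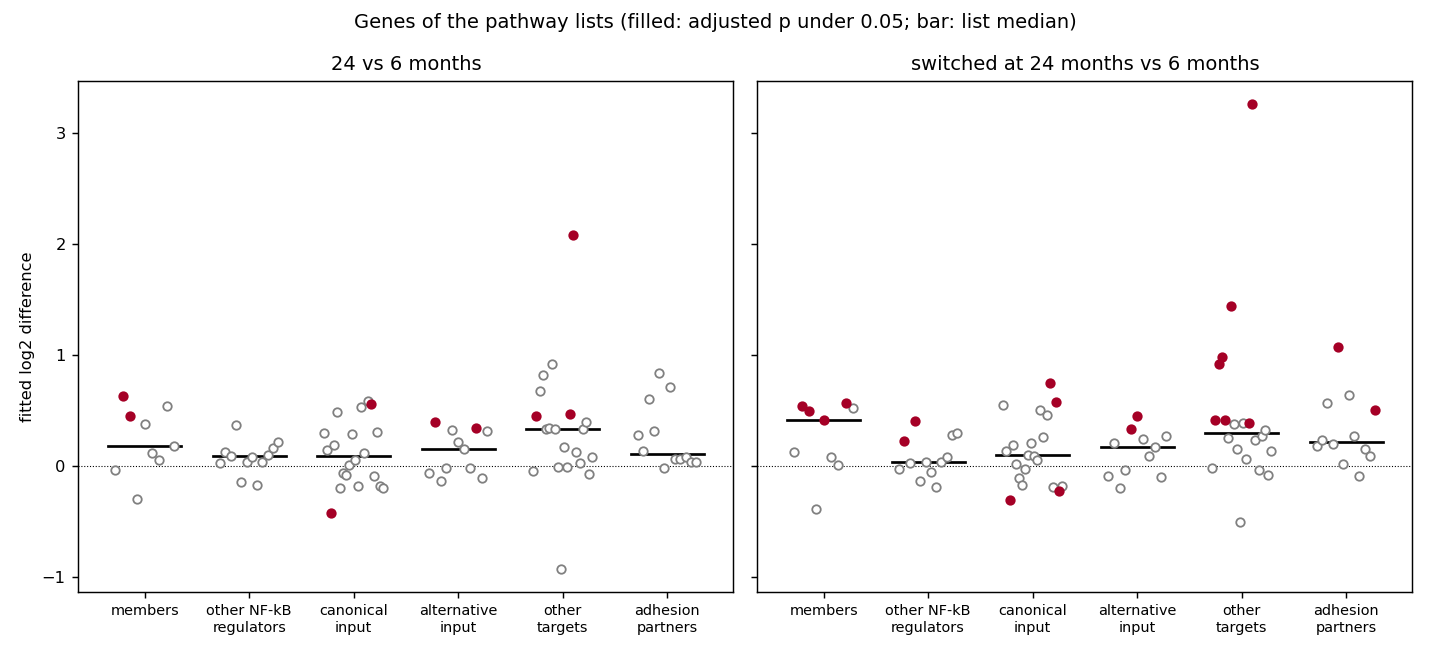
Fitted log2 differences (y axis) of the members and of the genes in 5 pathway lists (x axis) for 24 against 6 months (left) and switched against 6-month livers (right), filled where the limma adjusted p was under 0.05, with a bar at each list median. Lcn2 is the highest point in both panels (2.08 and 3.26), and the median of other targets is 0.33 on the left.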

How the data were processed

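Liver RNA of 28 mice was measured on whole-transcript arrays, and per the submitters' processing notes the authors summarised them with RMA, which gave the deposited log2 values, taken over unchanged. The RMA version, and whether all arrays were normalised in 1 run, are not given here by any source used. Of 35556 probe sets, 21218 name 1 gene, 1881 several and 12457 none in the annotation of the array, and no probe set was filtered out or called detected.

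Differences were fitted with limma 3.58.1 under R 4.3.3, in 1 model over the 28 arrays with terms for the 4 groups and the array batch, and variances were moderated by empirical Bayes. Tests were two-sided, with Benjamini-Hochberg adjustment over all probe sets and a threshold of 0.05. Tables, correlations and figures were made with Python 3.11.15, pandas 2.3.3, numpy 2.4.6, scipy 1.17.1 and matplotlib 3.10.9. The fit was tested on simulated data with known differences. Those differences were larger than the ones of the members, and the noise had no batch effects and equal spread in all groups. The simulation therefore does not check the calls of the members.

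The members and lists were chosen with earlier results of these data known. All members are named in every comparison, and of each pathway list and comparison the genes that passed, at most 5 with the smallest p, or else the 1 with the smallest p. For likeness the 3 genes with the highest r were named, leaving out predicted or unnamed genes and small RNAs. Lists are described by counts and medians, with no set test. Alternatives were no batch term, G150 alone, G151 with G152, the compared groups alone, omission of the dimmest 30 percent of probe sets, probe sets with 1 gene, repeated quantile normalisation, median centring, trend with robust moderation, array weights, a replicate block, arrays with a suffix in the name left out, and each liver left out. Promoter windows are from RefSeq (GRCm38.p6).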

Additional observations from a re-analysis of the deposited data

How the results depend on the processing

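No result that passed reversed under an alternative. For 24 against 6 months 2 members passed, and this became 1 in batch G150 alone, 0 in batches G151 and G152 alone (4 at an unadjusted p under 0.05), 1 with only the compared groups and 1 with the replicate block; with 1 liver left out it ranged from 1 to 3. For switched against 6 months 4 passed, and this became 1, 0 (4 at an unadjusted p under 0.05), 2 and 1 under the same settings and 1 to 4 with 1 liver left out. The other comparisons gave 0 members throughout. The replicate numbers name different mice, and the correlation of deviations between same-numbered livers over 39 pairs ran from -0.14 to 0.14 (median 0.02), so the numbers do not pair the livers. With the replicate block Icam1 had an adjusted p of 0.0532 at 24 against 6 months, and of the 4 members called in switched livers only Nfkb2 passed. Nfkb2 passed at 24 against 6 months in 11 of 12 settings, Icam1 in 8 and Tnfaip3 in 4, the last with the dimmest probe sets left out, with probe sets of 1 gene, with array weights and without the arrays with a suffix (adjusted p from 0.0108 to 0.0444). In switched against 6-month livers Nfkb2 passed in 11, Tnfaip3 in 9 and Icam1 and Nfkbie in 8 each. Over the same settings, probe sets called ranged from 0 to 518 for 12 against 6 months (210 as reported), from 3 to 2271 for 24 against 6 (1681), from 0 to 39 for 24 against 12 (9), from 0 to 10 for switched against lifelong (7) and from 4 to 4003 for switched against 6 months (3572), the lowest in single batches or the compared groups alone, or with the block. With 1 liver left out these counts ranged from 7 to 546, 831 to 2370, 1 to 124, 1 to 36 and 2475 to 3849 in the same order. The lowest counts were without 6-month replicate 4, 6-month replicate 3, 24-month replicate 5, 24-month replicate 4 or 7 and 6-month replicate 3, and the highest without 6-month replicate 1, 24-month replicate 7, 24-month replicate 4, 24-month replicate 1 and switched replicate 3. Other probe sets of a member were not tried, since each has 1. Within batches the groups hold 1 to 6 livers, which limits those values.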
